A study of Canis lupus familiaris with 26 samples.

Results

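The 37 genes described here encode proteins that hold cells to the extracellular matrix and to each other: 13 integrin subunits, 9 cadherins, 5 protocadherins, 3 claudins, 2 desmosomal cadherins, 3 members of the JAM and nectin families, beta-catenin and an inhibitor of beta-catenin. They were measured by RNA-Seq in the corpus luteum (CL) of the dog, and were chosen by the symbols of these families among the 4347 genes with a symbol on the study's own lists of differentially expressed genes (DEGs), out of 19856 genes counted. CDH5 was left out by this rule, and no connexin was listed. The lists were made from the counts of these same samples. One list compares days 20 and 30 with days 5 and 10 after ovulation in control dogs (termed control maturation), and held 26 of the genes, 18 lower and 8 higher in the later CL. The other list compares treated with control dogs on each day. Of the 26 genes of control maturation, 16 were listed for it alone, 6 also for treatment on day 20 and 4 also for treatment on day 30. A further 8 genes were listed only for day 20 and 3 only for day 30, and none was listed for day 5 or day 10. The paper's lists for those early days held very few genes of any kind, so this absence says little about these families. For control maturation, a fit with the paper's method, DESeq2, gave 1823 genes lower and 1690 higher (P under 0.01 and FDR under 0.1). Lower genes thus made up a larger part of the 26 than of all such genes, which was not tested.

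The 26 samples came from mixed-breed bitches of various ages after a spontaneous estrus, with ovulation counted as day 0. Treated dogs received the COX2 inhibitor firocoxib (Previcox) by mouth at 10 mg/kg each day from ovulation until surgery, which took place on day 5 in 4 dogs and on days 10, 20 and 30 in 3 dogs each. Control dogs were operated on the same days, in equal numbers. The labels of the samples give these controls a placebo, whereas the design text calls them untreated. Each sample was dissected luteal tissue of 1 dog, so that luteal, endothelial, stromal and blood cells were read together, and a lower value in such bulk tissue can stand for fewer cells of a type or for less RNA per cell, which cannot be told apart here.

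Integrins are pairs of an alpha and a beta subunit. Most bind matrix proteins such as fibronectin, laminin or collagen, and those with the beta 2 subunit are found on leukocytes. Cadherins join neighbouring cells through calcium-dependent contacts that are tied to the actin cytoskeleton by catenins, desmosomal cadherins do so in desmosomes, and claudins and JAMs belong to tight junctions. The CL arises from the ruptured follicle, when vessels and stromal cells grow in among the luteinizing cells, and such adhesion proteins are part of the remodeling of that tissue. COX2 makes the precursor of prostaglandins, which act on the early canine CL.

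The libraries held 12831896 to 22658950 reads on genes. Levels are given as CPM, read counts divided by the effective library size (edgeR, TMM). These levels are not corrected for gene length, so they were compared between samples and not between genes. The luteal markers LHCGR and PRLR, the 2 of 7 with a known identifier, were read in every sample, with a sum between 100 and 508 CPM. A marker had a known identifier only where it was on the study's lists of DEGs. All marker sums given here thus rest on genes that some contrast of these samples had listed as differing. Of the treated samples, 3 stood apart together: day 5 replicate 1, day 10 replicate 1 and day 20 replicate 2. The deviations of these 3 libraries from their group means correlated with each other at 0.698 to 0.834 over 13389 genes, against a median of 0.00657 for other pairs of samples from different groups, although the highest such pair reached 0.697. In them ITGB1, the beta 1 subunit that pairs with many alpha subunits, had 276, 420 and 208 CPM, while the other 23 samples ranged from 712 to 1630 CPM. The counts of called genes and of genes with P under 0.05 are therefore also given without these 3 libraries where these changed. Their part in the remaining values was not tested.

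**Figure D1:**
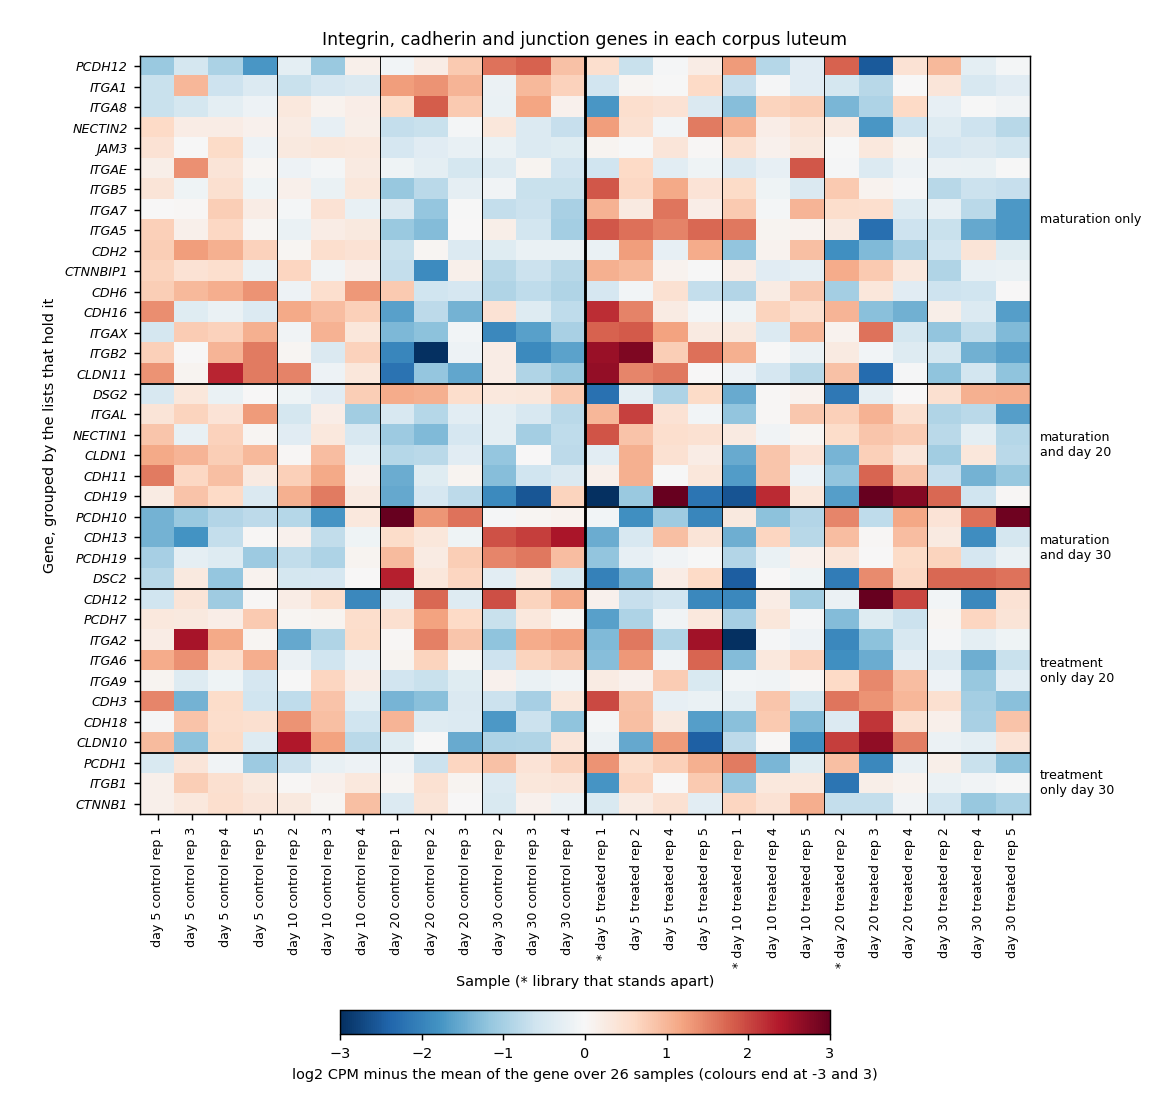
Level of each of the 37 genes (vertical axis) in each of the 26 samples (horizontal axis), as log2 CPM minus the mean of the gene over all samples, in red where above and in blue where below it. Horizontal lines separate the genes by the lists that hold them, and asterisks mark the 3 libraries that stand apart. The upper block is mostly red in early and blue in late samples of both control and treated dogs, while PCDH12, ITGA1 and ITGA8 at its top are blue in most early and red in most late control samples.

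The first question was whether the genes listed only for control maturation differed in the same way between early and late CL of treated dogs. The 13 treated samples were compared, days 20 and 30 (n = 6) over days 5 and 10 (n = 7). The treated samples had no part in placing these 16 genes on the list of maturation, but their absence from the lists for treatment rests on them in part. ITGA5, ITGB2 and NECTIN2 fell in the later treated CL, which made 3 of the 16 genes called (P under 0.01 and FDR under 0.1, edgeR's quasi-likelihood test), where 4.65% of all genes tested were called. At an unadjusted P under 0.05 there were 7, with CDH2, CLDN11, ITGA7 and ITGB5 in addition, where 19.6% of all genes passed. The log2 fold changes were negative for all 13 genes that the control list gave as lower, and positive for only 1 of the 3 that it gave as higher. Their median was -0.89, beside -0.0025 over all genes tested. Without the 3 libraries CDH2 (log2 fold change -1.18, FDR = 0.0833) was called as well, which made 4 of 16 where 11.5% of all genes were called, and CDH16 also had P under 0.05, which made 8 of 16 where 28.1% of all genes did. For comparison, 96.1% of the other 1270 genes listed only as lower in control maturation had a negative log2 fold change in treated samples, 22.3% of them were called, and their median was -0.99. Of the other 1340 genes listed only as higher, 91.2% had a positive log2 fold change, with 7.31% called and a median of 0.49.

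Among the integrins that bind matrix, ITGA5 encodes the alpha subunit of the fibronectin receptor. In treated dogs ITGA5 had 136 to 464 CPM on days 5 and 10 (median 380) and 26.5 to 153 CPM on days 20 and 30 (median 62.1). Early and late samples overlapped only in that day 20 replicate 2, with 153 CPM, lay above both day 10 replicates 4 and 5 (136 and 137 CPM). The log2 fold change was -2.19 (standard error 0.44, FDR = 0.023), and ITGA5 was called in each of 22 settings of the analysis, with an FDR of at most 0.0874. In control dogs it had a median of 148 CPM early and 75 CPM late, a log2 fold change of -0.82. The difference between these fold changes was not tested, since the control samples chose the gene. On day 5 ITGA5 had 464, 399, 355 and 418 CPM in treated and 210, 140, 196 and 132 CPM in control samples. All 4 treated samples lay above all 4 controls (5.01% of all genes were higher without overlap on that day), with a log2 fold change of 1.27 (standard error 0.26). These day 5 controls were among the samples that chose ITGA5, so the value is a description. The sum of 8 of 9 markers of mural and smooth muscle cells did not overlap on day 5 either, with 1200 to 4220 CPM in treated and 614 to 925 CPM in control samples. Over the days it was 501 to 4220 CPM (median 1200) in early and 556 to 1640 CPM (median 845) in late treated samples, with none at 0, and its part in the values of ITGA5 was not tested.

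ITGA7, which pairs with beta 1 as a laminin receptor, had 34.6 to 109 CPM (median 61.9) in early and 10.8 to 52.0 CPM (median 28.9) in late treated samples, a log2 fold change of -0.94 (standard error 0.38, FDR = 0.190). ITGB5, the beta subunit of the vitronectin receptor alpha v beta 5, had 72.9 to 360 CPM (median 147) early and 55.3 to 168 CPM (median 79.5) late, a log2 fold change of -0.85 (standard error 0.39, FDR = 0.239) that came to -0.53 and lost P under 0.05 without day 5 replicate 1. Early and late values overlapped for both genes. The 3 treated samples of day 30 were the lowest of all treated samples for ITGB5, at 55.3, 63.0 and 60.8 CPM, whereas those of day 20 had 168, 105 and 96.1 CPM.

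ITGA1, a collagen receptor subunit, and ITGA8, a subunit of a receptor for fibronectin and nephronectin, were 2 of the 3 genes listed as higher. In controls ITGA1 had 34.3 to 110 CPM early (median 38.4) and 48.9 to 139 CPM late (median 110), a log2 fold change of 1.11. In treated dogs it had 34.0 to 83.2 CPM early (median 53.5) and 30.9 to 71.2 CPM late (median 41.5), a log2 fold change of -0.14 (standard error 0.26, FDR = 0.781). Late treated samples thus spanned nearly the same range as early ones. ITGA8 had medians of 41.8 and 74.9 CPM in early and late controls, a log2 fold change of 0.97, and of 62.9 and 41.5 CPM in early and late treated samples, a log2 fold change of -0.29 (standard error 0.42, FDR = 0.704). The gap between control and treated fold changes was not tested, as the control side was fixed by the choice of the genes. On day 20 the ITGA1 values of 131, 139 and 112 CPM in controls all lay above those of 37.9, 30.9 and 55.7 CPM in treated samples, one of the 14.5% of genes that were lower without overlap on that day.

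**Figure D2:**
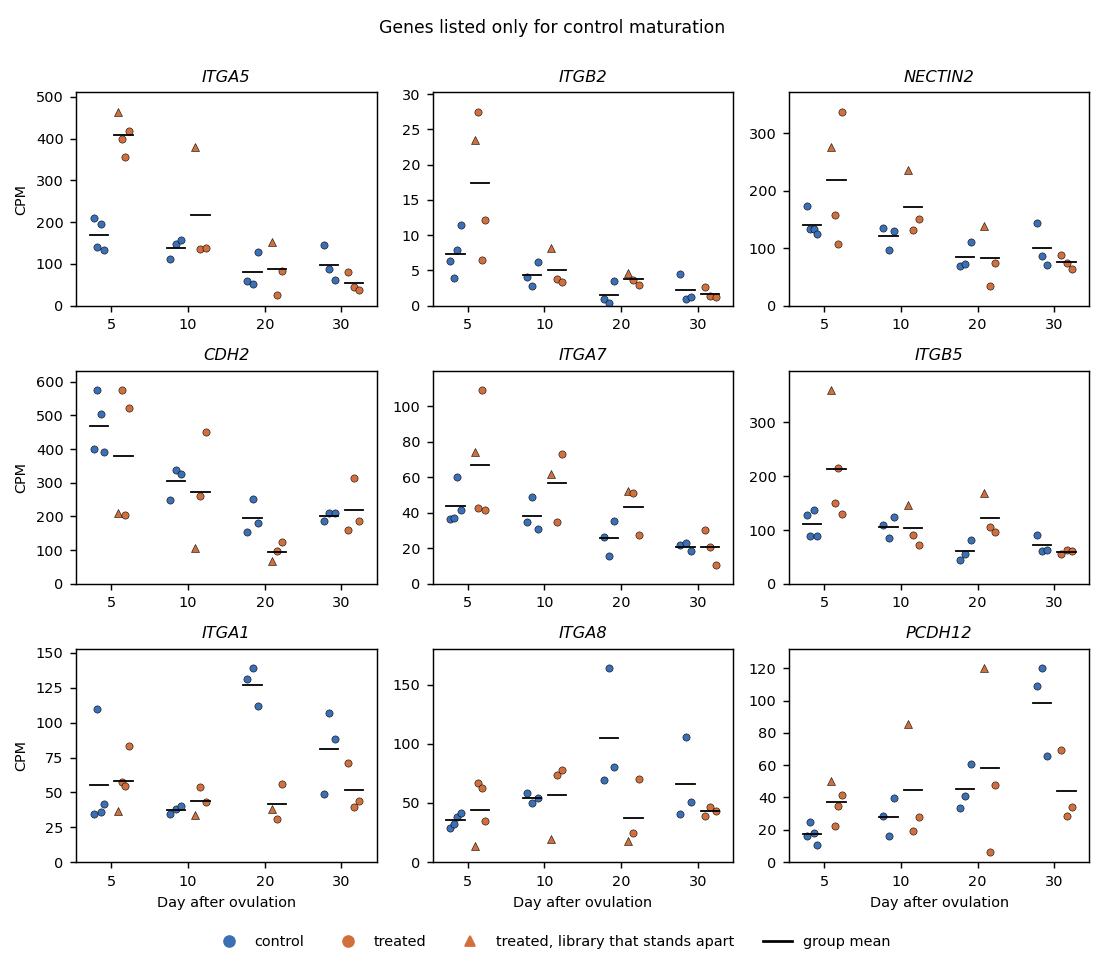
CPM (vertical axis, from 0) by day after ovulation (horizontal axis) for 9 of the 16 genes listed only for control maturation, 1 point per sample, with horizontal bars at the group means and triangles for the 3 libraries that stand apart. The highest means of ITGA5 and ITGB2 are those of day 5 treated samples (409 and 17.4 CPM), and the highest means of ITGA1 (127 CPM, day 20), ITGA8 (105 CPM, day 20) and PCDH12 (98.2 CPM, day 30) are those of late controls.

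The leukocyte integrins listed only for maturation were ITGB2, ITGAX and ITGAE. ITGB2 encodes the common beta subunit of leukocyte integrins. It had 3.38 to 27.5 CPM (median 8.11) in early and 1.16 to 4.64 CPM (median 2.77) in late treated samples, with a log2 fold change of -2.14 (standard error 0.55, FDR = 0.0622). The highest values, 23.5, 27.5 and 12.2 CPM, were those of day 5 replicates 1, 2 and 5, and 2 of the 3 samples of day 10 lay within the range of the late ones. The call was lost, with an FDR between 0.102 and 0.151, without any one of day 5 replicates 1, 2 and 5, day 20 replicate 4, or day 30 replicates 2, 4 and 5 of the treated dogs. ITGAX, an alpha partner of ITGB2 on macrophages and dendritic cells, was not called (log2 fold change -0.96, standard error 0.53, FDR = 0.323), with 20.2 CPM in day 20 replicate 3 against 2.49 to 6.93 CPM in the other late treated samples. ITGAE, an alpha subunit of T cells within epithelia, was not called either (log2 fold change -0.53, standard error 0.40, FDR = 0.461), and its highest value, 26.5 CPM, was that of day 10 treated replicate 5.

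Markers of leukocytes moved beside these integrins. CD68, AIF1, LYZ and TYROBP, the 4 of 12 leukocyte markers with a known identifier, summed to 59.5 to 560 CPM (median 156) in early and 51.9 to 124 CPM (median 85.9) in late treated samples, and to 75.8 to 228 CPM and 47.7 to 98.6 CPM in early and late controls. None of the 4 was at 0 in any sample, and all 4 had entered through the study's DEG lists. In treated maturation AIF1 (log2 fold change -1.26, FDR = 0.0644) and TYROBP (-1.44, FDR = 0.0886) were called, while CD68 (-1.82, FDR = 0.108) and LYZ (-1.05, FDR = 0.380) were not. The part of the leukocyte markers in the values of ITGB2, ITGAX and ITGAE was not tested.

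**Figure D3:**
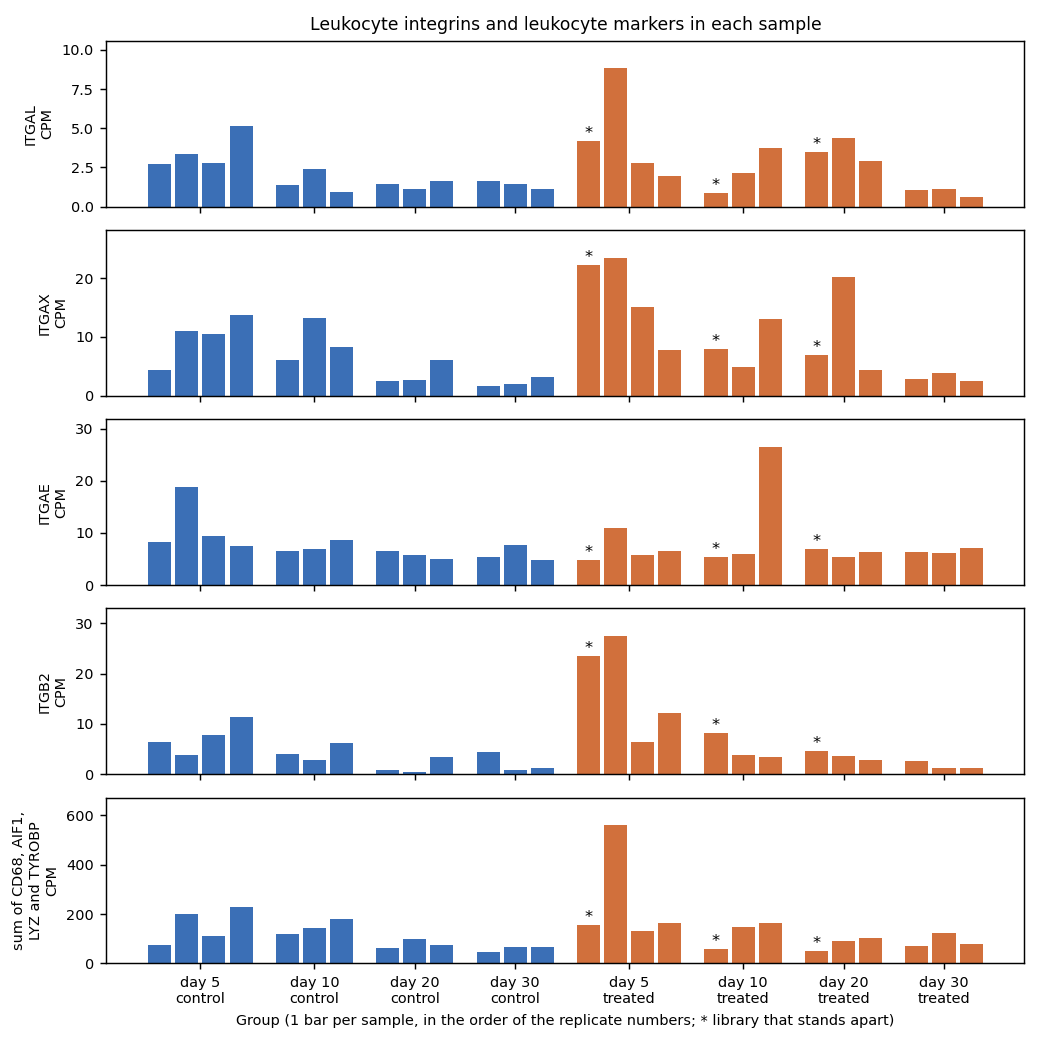
CPM (vertical axes, from 0) of ITGAL, ITGAX, ITGAE, ITGB2 and the sum of the leukocyte markers CD68, AIF1, LYZ and TYROBP, 1 bar per sample by group (horizontal axis), with asterisks at the 3 libraries that stand apart. Day 5 treated replicate 2 has the highest ITGAL (8.82 CPM), ITGAX (23.5 CPM), ITGB2 (27.5 CPM) and marker sum (560 CPM), and day 10 treated replicate 5 the highest ITGAE (26.5 CPM).

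The cadherins listed only for maturation were CDH2, CDH6, CDH16 and PCDH12. CDH2, or N-cadherin, a classical cadherin of granulosa and luteal cells, had 106 to 575 CPM (median 260) in early and 67.3 to 313 CPM (median 141) in late treated samples, with a log2 fold change of -1.06 (standard error 0.43, FDR = 0.193). On day 20 its values of 67.3, 96.1 and 123 CPM in treated samples lay below those of 153, 253 and 181 CPM in controls, as for 14.5% of all genes on that day. The luteal markers LHCGR and PRLR summed to 111 to 242 CPM in the same treated samples and 309 to 508 CPM in the controls, and their part in the values of CDH2 was not tested. CDH6 (log2 fold change -0.30, standard error 0.33), also a classical cadherin, and CDH16 (-1.36, standard error 0.65), a cadherin known from the kidney that rests on under 4 CPM in all samples, did not pass P under 0.05. CDH16 did so with DESeq2 (-1.40) and without the 3 libraries (-1.68, FDR = 0.106). CDH6 on day 5 had 8.08, 10.8, 15.9 and 6.91 CPM in treated and 19.2, 22.7, 24.4 and 29.3 CPM in control samples, without overlap (3.63% of all genes were lower in this way), a difference that shares the controls that chose the gene.

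PCDH12 is a protocadherin of endothelial cells. It had 10.5 to 39.5 CPM in early and 33.6 to 120 CPM in late controls, a log2 fold change of 1.70, against 0.36 (standard error 0.51, FDR = 0.698) in treated dogs, where it ranged from 19.4 to 85.7 CPM early and from 6.08 to 120 CPM late. The 120 and 85.7 CPM in treated dogs were those of 2 of the 3 libraries that stand apart, day 20 replicate 2 and day 10 replicate 1. The sum of PECAM1, CDH5, VWF, KDR and EMCN, 5 of 10 endothelial markers, was 569 to 1420 CPM in early and 1010 to 1980 CPM in late controls, and 641 to 1720 CPM in early and 484 to 1380 CPM in late treated samples, with none at 0. Its part in the values of PCDH12 was not tested.

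Of the junction genes listed only for maturation, NECTIN2, a nectin of adherens junctions, had 108 to 337 CPM (median 157) in early and 34.2 to 138 CPM (median 74.7) in late treated samples. The log2 fold change was -1.32 (standard error 0.35, FDR = 0.0675), and 2 of the 7 early samples lay within the range of the late ones. The call was lost, with an FDR between 0.103 and 0.170, without any one of day 5 replicates 1, 2 and 5, day 10 replicate 1, day 20 replicates 3 and 4, or day 30 replicates 2, 4 and 5 of the treated dogs. CLDN11, a claudin known from Sertoli cells and myelin, had 0.328 to 4.78 CPM (median 0.685) in early and 0.0475 to 1.33 CPM (median 0.329) in late treated samples, a log2 fold change of -1.67 (standard error 0.76, FDR = 0.239), on few reads, that came to -1.09 and lost P under 0.05 without day 5 replicate 1. JAM3, a junctional adhesion molecule of endothelial and other cells, was one of 2 genes listed as lower whose early and late controls did not overlap (58.0 to 96.6 against 45.6 to 56.3 CPM, where 2.46% of all genes were lower without overlap). In treated dogs its log2 fold change was -0.33 (standard error 0.22), with 45.6, 47.5 and 43.8 CPM on day 30 but 64.4, 80.8 and 68.1 CPM on day 20. CTNNBIP1, which binds beta-catenin and blocks its interaction with TCF factors, reached at most 1.76 CPM and differed little in mean (log2 fold change -0.02, standard error 0.47).

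**Figure D4:**
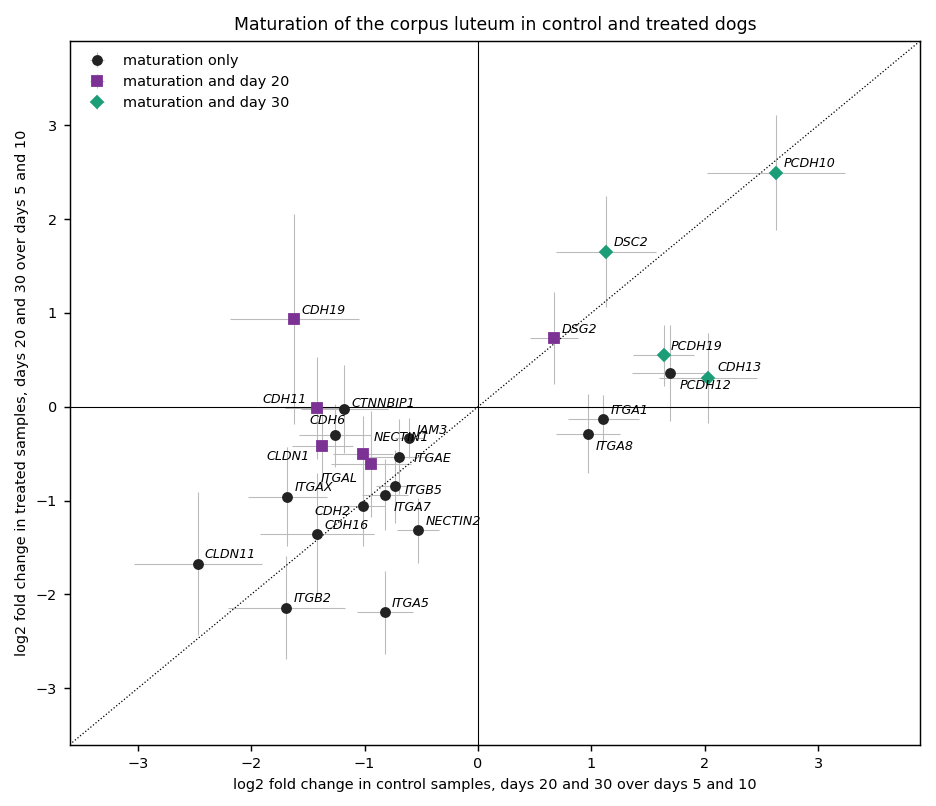
Log2 fold change of late over early CL in control (horizontal axis) and treated samples (vertical axis) for the 26 genes listed for control maturation, with bars for the standard errors and a dotted line at equal values. The controls chose the genes, so only the vertical position is a reading apart from the choice, except that treated samples of day 20 or day 30 had a part in listing the squares and diamonds. The absence of genes from lists for treatment also rests on treated samples in part. ITGA5 (-2.19) and NECTIN2 (-1.32) lie below the line, and ITGA1 (-0.14) and ITGA8 (-0.29) on the other side of 0 from their control values.

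Genes of the 2 lists together were compared in treated samples of the days that had not listed them. For the 6 genes listed for maturation and day 20, day 30 (n = 3) was compared with days 5 and 10 (n = 7). A gene also listed for treatment on day 5, 10 or 30 would have left this set. The rule itself thus left less room for a sign other than that of the controls. All 6 log2 fold changes had the sign of the control list, 5 negative and 1 positive, where 47% of all genes had a positive one. None was called by edgeR, where 8.24% of all genes were called, but 4 of the 6 had an unadjusted P under 0.05, where 24.7% of all genes did, and DESeq2 called 3 (15.5% of all genes). Without day 5 treated replicate 1 and day 10 treated replicate 1, the libraries among the 3 that enter here, CDH11, ITGAL and NECTIN1 were called (12.2% of all genes) and CLDN1 also had P under 0.05, which made 5 of 6 where 28.4% of all genes did. Without day 10 treated replicate 1 alone CDH11 and ITGAL were called.

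NECTIN1, a nectin that pairs with other nectins at adherens junctions, had 6.54 to 26.2 CPM (median 9.59) in early treated samples and 3.95, 5.72 and 3.83 CPM on day 30, without overlap, where 8.09% of all genes were lower in this way. The log2 fold change was -1.35 (standard error 0.48, FDR = 0.127). On day 20, the contrast that listed it, it had 10.4, 12.5 and 12 CPM in treated and 3.24, 2.74 and 4.93 CPM in control samples. Treated samples were thus above the controls on day 20 and overlapped with them on day 30, when controls had 5.67, 3.39 and 4.12 CPM.

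CDH11, a cadherin of mesenchymal cells, had 23.4 to 155 CPM (median 83.2) in early treated samples and 46.0, 27.7 and 33.7 CPM on day 30, a log2 fold change of -1.32 (standard error 0.48, FDR = 0.132). The 7 fibroblast markers summed to 4380 to 27300 CPM (median 13300) and 2500 to 5560 CPM in the same early and day 30 treated samples, and to a median of 14900 CPM in early and 5100 CPM in late controls, with none at 0. Their part in the values of CDH11 was not tested. On day 20 treated samples had 33.0, 252 and 134 CPM and controls 26.7, 58.2 and 78.8 CPM, with the treated sample at 33.0 CPM one of the 3 libraries that stand apart. ITGAL, the alpha partner of ITGB2 on lymphocytes, had 0.842 to 8.82 CPM in early treated samples and 1.05, 1.13 and 0.580 CPM on day 30, a log2 fold change of -1.91 (standard error 0.70, FDR = 0.132), and on day 20 it had 3.46, 4.37 and 2.91 CPM in treated and 1.44, 1.1 and 1.64 CPM in control samples. The summed leukocyte markers on day 20 were 51.9 to 103 CPM in treated and 63.3 to 98.6 CPM in control samples. The part of leukocytes in the values of ITGAL was not tested.

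DSG2, a desmosomal cadherin, was the gene of this set listed as higher with maturation. It had 11.3 to 80.0 CPM (median 44.3) in early treated samples and 75, 112 and 115 CPM on day 30, a log2 fold change of 1.28 (standard error 0.47, FDR = 0.136). On day 20 it had 12.1, 44.8 and 54.2 CPM in treated and 116, 112 and 78.5 CPM in control samples, and its lowest values in early treated dogs, 11.3 and 18.8 CPM, were again those of libraries that stand apart. CLDN1, a claudin of tight junctions, and CDH19, a cadherin known from Schwann cells, had log2 fold changes of -0.70 (standard error 0.52) and -0.41 (standard error 1.37) on day 30 over days 5 and 10. CDH19 ranged from 0 to 8.66 CPM in early treated samples, and its day 20 values were 0.213, 12.4 and 6.78 CPM in treated against 0.240, 0.610 and 0.477 CPM in control samples. CLDN1 had 3.09, 13.8 and 10.7 CPM in treated and 4.51, 4.69 and 6.52 CPM in control samples on day 20.

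For the 4 genes listed for maturation and day 30, day 20 (n = 3) was compared with days 5 and 10 (n = 7) in treated samples. A gene also listed for treatment on day 5, 10 or 20 would have left this set, which again left less room for the other sign. All 4 log2 fold changes were positive, as on the control list, where 49.9% of all genes had a positive one. None was called by edgeR, which called 0% of all genes there, nor by DESeq2, which called 2.53%. PCDH10, a protocadherin best known from the brain, had an unadjusted P under 0.05 (8.93% of all genes), with 0.228 to 1.5 CPM early and 3.52, 0.665 and 2.80 CPM on day 20, a log2 fold change of 1.86 (standard error 0.67, FDR = 0.428). Without the 3 libraries DSC2 also had P under 0.05, where 22.3% of all genes did. DSC2 is the desmosomal partner of DSG2. It had 0.842 to 7.94 CPM early and 1.12, 14.1 and 8.11 CPM on day 20, and the 1.12 CPM was that of the library that stands apart.

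On day 30, the contrast that listed them, these 4 genes separated all treated from all control samples. CDH13, or T-cadherin, a cadherin without a cytoplasmic domain that is found on vessels, had 20.6, 4.66 and 12 CPM in treated and 64.9, 72.7 and 94.9 CPM in control samples. PCDH19, a protocadherin known from the brain, had 5.87, 2.54 and 3.19 CPM in treated and 10.2, 11.2 and 7.05 CPM in control samples. DSC2 had 17.3, 17.3 and 16.2 CPM in treated and 4.12, 6.33 and 3.74 CPM in control samples, and PCDH10 had 1.63, 4.02 and 9.85 CPM in treated and 1.18, 1.25 and 1.31 CPM in control samples. CDH13 and PCDH19 thus had their highest group means in day 30 controls, and DSC2 had its highest in day 30 treated samples. The log2 fold changes were -2.51 for CDH13, -1.17 for PCDH19, 1.95 for DSC2 and 2.16 for PCDH10, the last of which came to 1.28 without treated replicate 5. The summed endothelial markers on day 30 were 1580 to 1980 CPM in control and 627 to 1180 CPM in treated samples, and their part in the values of CDH13 was not tested. On that day 9.17% of all genes were lower and 5.66% higher in treated samples without overlap.

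**Figure D5:**
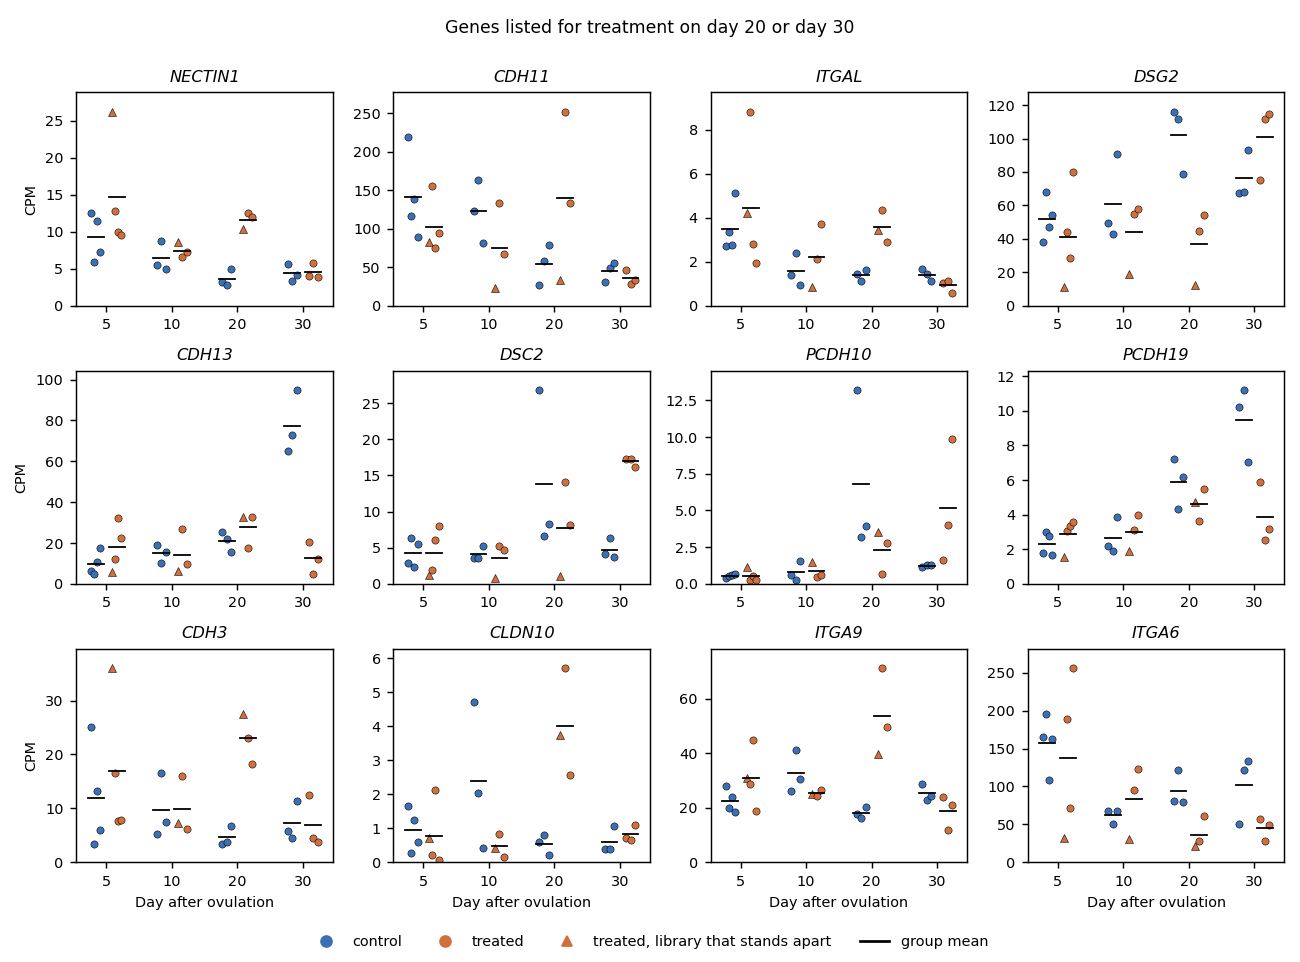
CPM (vertical axis, from 0) by day after ovulation (horizontal axis) for 12 of the 21 genes listed for treatment on day 20 or day 30, 1 point per sample, with horizontal bars at the group means and triangles for the 3 libraries that stand apart. NECTIN1, CDH3, CLDN10 and ITGA9 are higher in all treated than in all control samples of day 20, and CDH13 and PCDH19 are lower and DSC2 and PCDH10 higher on day 30. These days chose the genes.

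The 8 genes listed only for treatment on day 20 comprised 5 that were higher and 3 that were lower in treated samples, and their day 20 values are a description. Among the higher genes, CDH3, or P-cadherin, a classical cadherin of epithelia and placenta, had 27.6, 23.1 and 18.2 CPM in treated and 3.36, 3.72 and 6.62 CPM in control samples. CLDN10, a claudin that forms ion pores, had 3.73, 5.70 and 2.55 CPM against 0.601, 0.793 and 0.212 CPM. ITGA9, whose product pairs with beta 1 and binds tenascin and osteopontin, had 39.6, 71.1 and 49.6 CPM against 17.5, 16.3 and 20.2 CPM. For each of these 3 genes all treated samples lay above all controls, as for 15.8% of all genes on that day. CDH12 (0.266, 3.99 and 1.58 CPM against 0.240, 1.28 and 0.212 CPM) and CDH18 (2.03, 12.4 and 3.77 CPM against 5.65, 2.07 and 2.01 CPM), cadherins known from the brain, overlapped between the groups. Their highest values, like those of CDH11, CDH19, CLDN10 and ITGA9 on that day, were those of day 20 treated replicate 3.

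Among the lower genes, ITGA2, a collagen receptor subunit, had 1.49, 2.47 and 4.28 CPM in treated and 6.19, 17.4 and 10.7 CPM in control samples of day 20. ITGA6, a laminin receptor subunit, had 21.2, 27.3 and 60.7 CPM against 80.2, 121 and 79.6 CPM, and PCDH7, a protocadherin, had 61.8, 119 and 97.8 CPM against 213, 350 and 229 CPM. None of these 3 genes overlapped between the groups, where 14.5% of all genes were lower in this way. Over the whole list of day 20, the log2 fold changes of the 10 higher genes ranged from 0.86 to 3.91, and those of the 4 lower genes from -2.0 to -1.31. By edgeR 0.102% of all genes were called on that day. Without day 20 treated replicate 2 they ranged from 1.27 to 4.47 and from -1.73 to -1.01, with 7.4% of all genes called. Without day 20 treated replicate 3 the lower end of the higher genes moved further, as CDH18 turned to -0.13, CLDN1 came to 0.43, CDH11 to 0.65 and CDH12 to 0.73.

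Markers on other cell type lists also differed in level between the groups of day 20, besides the luteal ones given for CDH2. These markers, too, had an identifier only through the study's DEG lists. ZP2, ZP3, ZP4, GDF9, BMP15 and NLRP5, the 6 of 8 oocyte markers with a known identifier, summed to 151 to 267 CPM in treated and 4.56 to 9.15 CPM in control samples, where BMP15, NLRP5, ZP3 and ZP4 were at 0 in at least 1 control. EPCAM, the 1 of 8 epithelial markers with a known identifier, had 15.1 to 88.2 CPM in treated and 3.05 to 16.9 CPM in control samples. All 7 fibroblast markers summed to 9880 to 14200 CPM in treated and 3120 to 7520 CPM in control samples. FSHR, INHA and CYP19A1, 3 of 6 genes on the list of follicular granulosa cells, summed to 392 to 1830 CPM and 2980 to 4580 CPM, respectively. These genes summed to 822 to 2840 CPM in controls of days 5 and 10. The paper also cites aromatase (CYP19) expression when it discusses estrogens in the canine CL, so this sum is not particular to follicles. The part of all these markers in the day 20 values of the cadherins, claudins and integrins was not tested.

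The 11 genes listed only for day 20 or day 30 were then compared between treated and control samples of day 5 and of day 10. A gene listed on day 5 or day 10 would have entered through that list, so the rule itself left little room for calls on these days. CDH12 did not reach 10 reads on average on either day, which left 10 genes. None was called by edgeR on either day (0% of all genes), nor by DESeq2 (0.736% of all genes on day 5 and 0% on day 10), and 1 had an unadjusted P under 0.05 with edgeR on each day (11.8% of all genes on day 5 and 0.902% on day 10). PCDH1, a protocadherin of epithelial and endothelial cells, had 33.2, 18.8, 21.4 and 27.5 CPM in treated and 9.40, 16.9, 12.2 and 6.09 CPM in control samples of day 5. All treated samples lay above all controls (5.01% of all genes were higher in this way), with a log2 fold change of 1.17 (standard error 0.37, FDR = 0.412). The mural markers given for ITGA5 were also higher there without overlap, and their part was not tested. CLDN10 on day 10 had 0.421, 0.834 and 0.141 CPM in treated and 4.70, 2.02 and 0.413 CPM in control samples, which overlapped, with a log2 fold change of -2.34 (standard error 0.97, FDR = 1) that came to -1.38 without day 10 control replicate 2. Without the treated library that stands apart CLDN10 lost P under 0.05 (-2.31, FDR = 0.861) and ITGA6 gained it (0.83, FDR = 0.861), where 4.85% of all genes passed. Its treated mean was thus below that of the controls on day 10 and above it on day 20. For none of the 10 genes did the effect of treatment differ between day 10 and day 5 in edgeR's test of the interaction, all with an FDR of 0.999.

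For the 8 genes listed only for day 20, the samples of day 30 gave none called by edgeR or DESeq2 (0% and 0.881% of all genes) and 2 with an unadjusted P under 0.05 (8.14% of all genes). A gene listed for day 30 as well would have left this set, so the rule itself left little room for calls. ITGA6 had 57.5, 27.4 and 48.3 CPM in treated and 49.7, 121 and 134 CPM in control samples, a log2 fold change of -1.06 (standard error 0.41, FDR = 0.608), in the same direction as on day 20. CDH18 had 3.02, 1.34 and 5.04 CPM in treated and 0.749, 1.69 and 1.12 CPM in control samples, a log2 fold change of 1.52 (standard error 0.61, FDR = 0.610) that came to 1.01 without treated replicate 5. Both genes overlapped between the groups. The log2 fold changes of CDH3 (0.06, and -0.036 with DESeq2), CLDN10 (0.55), ITGA9 (-0.31), ITGA2 (-0.77), PCDH7 (0.55) and CDH12 (-1.75) on day 30 did not pass P under 0.05.

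The 3 genes listed only for day 30 were CTNNB1, ITGB1 and PCDH1, all lower in treated samples. CTNNB1 encodes beta-catenin, which links classical cadherins to alpha-catenin and carries Wnt signals. It had 940, 649 and 730 CPM in treated and 1040, 1560 and 1260 CPM in control samples of day 30, and PCDH1 had 14.7, 8.12 and 5.45 CPM against 24.0, 17.2 and 21.1 CPM. Both genes were lower without overlap, as were 9.17% of all genes on that day. ITGB1 had 830, 876 and 929 CPM against 712, 1200 and 1210 CPM, which overlapped, with a log2 fold change of -0.13 that came to -0.45 without day 30 control replicate 2 and to -0.011 without day 30 control replicate 4. A gene listed for day 20 as well would have left the set of 3, so the rule left little room for calls on day 20. In the samples of day 20 none of the 3 was called and none had P under 0.05, with edgeR or with DESeq2, where edgeR called 0.102% and DESeq2 10.8% of all genes, and edgeR gave 17% a P under 0.05. Their log2 fold changes were -0.46 (standard error 0.45) for CTNNB1, -0.46 (standard error 0.63) for ITGB1 and -0.05 (standard error 0.69) for PCDH1. For ITGB1 the day 20 treated samples had 208, 1060 and 1020 CPM, so that only the library that stands apart lay below the controls (985, 1290 and 1000 CPM).

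Ligands and adaptors of integrins and further junction genes had a symbol only where they were on the study's lists, so no share of these families is given. Of the adaptors, FERMT3, the kindlin of blood cells (log2 fold change -1.85, FDR = 0.0709), and PARVG, a parvin of blood cells (-1.89, FDR = 0.0757), fell in treated maturation. FERMT1, the kindlin of epithelia (0.28, FDR = 0.664), was not called. Of the ligands, the laminin chain LAMA1 rose (1.22, FDR = 0.0177), from a median of 122 CPM in early to 284 CPM in late treated samples. Osteopontin, SPP1 (-1.05, FDR = 0.533), and VCAM1 (-0.72, FDR = 0.442), both of which bind leukocyte integrins among others, were not called. The giant cadherins FAT2 (0.49), FAT4 (0.50) and CELSR1 (0.15) and the tight junction genes TJP1 (0.53) and MARVELD3 (1.16) were not called in treated maturation either. In control maturation, which listed most of them, their log2 fold changes were 2.19 for FAT2, 1.35 for FAT4, 1.79 for CELSR1, 0.69 for TJP1 and -2.32 for MARVELD3.

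By the paper's thresholds the lists ended at a P of 0.01 and an FDR of 0.1. The nearest genes were picked by the P of 0.01 alone. In a DESeq2 fit of the contrasts that listed them, the listed genes nearest to that P from below were ITGAE (log2 fold change -0.69), ITGAL (-0.94) and CDH16 (-1.44) for control maturation, ITGA6 (-1.38), ITGAL (1.36) and PCDH7 (-1.51) for day 20, and PCDH1 (-1.11), PCDH19 (-1.26) and PCDH10 (2.10) for day 30. Of genes of the same families, ligands and adaptors outside the 37, the nearest from above were FN1 (-0.88), LAMC3 (-0.88) and PTK2B (-0.58) for control maturation, COL1A1 (1.54), MFGE8 (1.27) and FAT4 (-1.31) for day 20, and FERMT1 (-0.83), ICAM1 (1.74) and PTK2 (-0.49) for day 30. Not all of these lay close to it, since LAMC3 and PTK2B had a P above 0.05 and PCDH7 one far below 0.01, and PCDH1, PCDH19 and PCDH10 had an FDR of 0.249, 0.205 and 0.15 on day 30. Some listed genes had a P above 0.01 in this fit, namely DSC2 for control maturation, DSG2, CDH11, CDH12, CLDN1 and CDH18 for day 20, and CTNNB1 and ITGB1 for day 30. Not all were near misses, since the P was above 0.05 for CDH11, CDH12, CLDN1, CDH18 and ITGB1. It reached 0.249 for CDH18 and 0.468 for ITGB1 in the DESeq2 fits. This fit thus did not call every gene that the paper listed. The same contrasts chose the genes, so these values are a description.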

How the data were processed

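Poly-A selected RNA was sequenced single-end. Per the labels, STAR, featureCounts and the build CanFam3.1 were used, and the authors deposited the raw read counts of 26 samples, having left out others as outliers, which were not analysed here. The kit does not mark strand, so antisense reads cannot be told apart. Symbols came from the study's DEG lists. PCDH10 had none on one list and was matched by identifier.

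The 37 genes, the gene and marker lists and the tests were chosen with earlier results of these data known. Counts of genes whose mean was 10 reads or more in 1 of the groups compared were tested with edgeR 4.0.16 (R 4.3.3, TMM factors, quasi-likelihood test, Benjamini-Hochberg adjustment over all genes tested). All 37 genes passed this filter in both maturation contrasts and on day 20, 36 on days 5 and 10 and on day 30 over days 5 and 10 of treated dogs, and 34 on day 30. Genes were called at P under 0.01 and FDR under 0.1. For a gene in a contrast that listed it, no test is read as a finding. P and FDR from such contrasts are given only as a description, where genes are set against the thresholds of the lists. The scripts were tested on simulated data first.

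Alternatives were DESeq2 1.42.0, RLE factors, no filter, filterByExpr, a fit of all 26 samples, the replicate number as a block, leaving out each sample in turn and, added after the data were seen, leaving out 3 treated libraries. Values are described for the genes called in treated maturation, or the 6 with the smallest P, and for all genes listed for treatment. Of each list of related genes, up to 3 called genes with the smallest P were named. The other members and markers were named in addition after their values were seen. The 30 pairs of samples within groups differed by a chi-square of at least 40.1 per degree of freedom, so none was a copy. The list without a result in the report was that of neural cells, where 2 of 6 markers summed to 2.12 to 13.9 CPM in early and 2.33 to 76.9 CPM in late treated samples. P-values rest on the spread between the sampled dogs. Where days were pooled, as in maturation, this spread also holds differences between those days.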

Additional observations from a re-analysis of the deposited data

Results flagged for a closer look

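Of 222 groups of 4 to 10 samples examined with Dixon's test, 7 held a sample far from the others, where chance alone gives about 1 in 20. ITGA1 had 110 CPM in day 5 control replicate 3, against at most 41.5 CPM in the other controls of days 5 and 10, and stood out both on day 5 and over both days. The same sample had the highest ITGAE of these controls, 18.7 CPM beside 9.34 CPM in the next. CDH16 had 1.78 CPM in day 5 control replicate 1, beside 0.509 CPM in the next. CDH6 had 19.7 CPM in day 20 control replicate 1, where the other late controls had at most 8 CPM. In day 20 treated replicate 2, a library that stands apart, DSC2 had 1.12 CPM and ITGB1 208 CPM, where the other late treated samples had at least 8.11 and 830 CPM.

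On 2 days treated samples lay on opposite sides of all controls for 3 genes. CDH6 was lower in every treated sample on day 5 (log2 fold change -1.21) and higher in every one on day 30 (0.604). JAM3 was higher on day 20 (0.529) and lower on day 30 (-0.0675), the latter by less than its standard error. PCDH1 was higher on day 5 (1.17) and lower on day 30 (-1.02). Of all genes, 3.63% were lower and 5.01% higher without overlap on day 5, 15.8% were higher on day 20, and 9.17% were lower and 5.66% higher on day 30. These differences between days were not tested.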

How the results depend on the processing

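The genes called or with P under 0.05 in a comparison kept the sign of their log2 fold changes in it under the alternatives run for them. Others did not. CDH18 on day 20 turned from 0.96 to -0.13 without treated replicate 3, and CDH3 on day 30 from 0.06 to -0.036 with DESeq2. Without the 3 libraries CDH3, ITGA2, ITGA6 and ITGB1 turned on day 5, ITGA2, ITGB1 and PCDH1 turned on day 10, and the median of the 10 genes on day 10 went from -0.21 to 0.038. The numbers called that moved by over 1.5 times were as follows. In treated maturation, 3 of 16 genes were called, 7 in a fit of all 26 samples and 1 to 4 with single libraries left out, with 1 without any one of day 5 replicates 1, 2 and 5, day 20 replicate 4, or day 30 replicates 2, 4 and 5 of the treated dogs. The 7 genes with P under 0.05 became 4 to 8, with 4 without day 5 replicates 2 or 4, day 20 replicate 4 or day 30 replicate 4. On day 30 over days 5 and 10 of treated dogs, where 0 of 6 genes were called, 3 were called with DESeq2, 3 in the fit of all samples, 2 with the replicate block, 3 without the 3 libraries, 4 without them and with DESeq2, and 0 to 2 with single libraries left out (2 without day 10 replicate 1). The 4 with P under 0.05 became 0 to 4, with 2 without day 30 replicate 4 and 0 without day 30 replicate 5. On day 20 over days 5 and 10 the 1 gene with P under 0.05 became 2 without the 3 libraries, 2 without them and with DESeq2, and 0 to 1 with single libraries left out (0 without day 20 replicate 4). For treatment on day 5 the 1 gene became 2 with DESeq2, 2 in the fit of all samples and 1 to 3 with single libraries left out (3 without treated replicate 5). For treatment on day 10 it became 2 without the outlying library and with DESeq2, and 0 to 2 with single libraries left out (2 without treated replicate 4, 0 without treated replicate 5 or control replicates 2 or 3). For treatment on day 30 the 2 genes became 0 in the fit of all samples, 0 with the replicate block and 0 to 2 with single libraries left out (1 without treated replicates 2 or 4 or control replicate 3, 0 without treated replicate 5 or control replicate 4). The cause of these changes was not tested.

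The paper states that dogs were assigned to the groups at random, and each sample was 1 dog, so the replicate numbers were not taken as a pairing. Same-numbered samples did not deviate together in all pairs (over 0.1 in 4 of 8 pairs of treated maturation, 1 of 3 of day 5 and 0 of 2 of days 20 and 30). So few pairs cannot decide the matter by themselves. With the replicate block NECTIN2 was not called in treated maturation (log2 fold change -0.93, FDR = 0.209). On day 10 only 1 number recurs, so no block could be fitted. With 3 or 4 dogs a group, and under 20 reads on average for CDH12, CDH16, CLDN11 and CTNNBIP1, fold changes are imprecise, and differences within the standard errors given were not detectable at this depth.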
